A study of Mus musculus with 9 samples.

Results

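The genes described here are 9 neuropeptide precursors and a nitric oxide synthase that tell hippocampal interneuron classes apart: Sst, Npy, Cck, Vip, Penk, Tac1, Crh, Cort, Pdyn and Nos1. They were chosen by name, and their Ensembl identifiers were matched to mouse symbols, so that all 10 were found among the 37620 genes of the count tables. All 10 also passed the filter of 1 CPM (read count scaled to library size) in 1 sample or more, which kept 15069 genes. The RNA came from parvalbumin inhibitory neurons (PV INs) of CA3/CA2 in PV-Cre; Rpl22HA/HA mice, in which a tagged ribosomal protein is made where Cre is active. Mice aged 2 months received lentiviruses in the dentate gyrus (DG) that carried a non-target shRNA (shNT, 5 samples) or an shRNA against Ablim3 (shRNA, 4 samples). CA3/CA2 tissue was taken 2 weeks later, pooled from 6 mice of both sexes for each sample, and ribosomes were pulled down by their tag. The shRNA acted in DG and not in the cells sequenced, so the level of Ablim3 does not check the labels (12.1 to 22.6 CPM in shNT, 13.7 to 21.7 CPM in shRNA). In a pulldown of this kind fewer cells of a type, less RNA per cell and RNA carried along from other cells cannot be told apart.

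Neuropeptides are made as longer precursor proteins, cut by proteases at pairs of basic residues, packed into dense-core vesicles and released to act on G protein-coupled receptors. In the hippocampus each precursor is known from particular interneurons. Somatostatin (Sst) marks O-LM cells and, together with neuropeptide Y (Npy), the PV-positive bistratified cells. Among interneurons, cholecystokinin (Cck) marks basket cells that carry the cannabinoid receptor Cnr1, while vasoactive intestinal peptide (Vip) marks cells that inhibit other interneurons. Cortistatin (Cort) is a relative of somatostatin, and Tac1 encodes substance P. Penk and Pdyn encode the opioid peptides enkephalin and dynorphin, and Pdyn is also made by DG granule cells. Crh encodes corticotropin-releasing hormone. Nos1 makes nitric oxide and marks ivy and neurogliaform cells, many of which also make Npy.

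Related precursors share short stretches of coding sequence, which are shown because reads from one could be counted for the other if the stretch were as long as a read. The longest run that the annotated transcripts of Sst and Cort have in common was 21 bases, inside the part that encodes the core of the mature peptides. For Penk and Pdyn it was 15 bases, in frame in both, which encode leucine-enkephalin. The reads were 50 bases long, and no pair among the 10 genes shared a longer run than Sst and Cort.

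Sst and Cort: ctgcaagaacttcttctggaa

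Penk and Pdyn: tatgggggcttcctg

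The promoter of Sst holds the cAMP response element TGACGTCA, the site through which cAMP and calcium signals act on this gene by the factor CREB. RefSeq promoter windows (build GRCm38.p6, from 250 bases before to 50 bases after the start site) were matched for 8 of the 10 genes, all but Penk and Crh. The full element was found in 1 of the 8, Sst, 48 bases before its start, against 2.03% of 27025 genes with a window. The half-site TGACG, read on both strands, was found in 6 of the 8 and in 23.0% of all genes. The full element itself contains a half-site on each strand, and those were the only 2 half-sites of Sst. The Sst window upstream of the start site (chr16:23890845-23891094 of GRCm38.p6, minus strand) is printed from 5′ to 3′ with the element in capitals.

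Sst promoter: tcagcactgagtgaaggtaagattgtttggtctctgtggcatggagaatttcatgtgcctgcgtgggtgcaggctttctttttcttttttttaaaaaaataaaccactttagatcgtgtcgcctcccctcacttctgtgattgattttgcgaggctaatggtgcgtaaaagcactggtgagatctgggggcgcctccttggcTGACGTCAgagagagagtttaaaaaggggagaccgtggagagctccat

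Gene counts per sample ran from 18281719 to 34578837. Between 9.76% and 18.6% of uniquely aligned reads lay outside annotated exons in the shNT samples and between 12.4% and 27.2% in the shRNA samples. There were 2 libraries that stood apart from the rest of their group: shRNA replicate 4, with the highest astrocyte markers (mean log2 level 2.51 above the shNT mean, against 0.29 to 0.67 in the other shRNA samples) and the lowest PV IN markers (-1.23, against -0.36 to -0.10), and shNT replicate 2, with the lowest GABAergic markers among the shNT samples (-0.62, against 0.04 to 0.24). Values of the genes below are therefore also given without them where they decide a value. Pvalb itself had a mean of 998 ± 287 CPM under shNT (SD, n = 5) and of 526 ± 162.7 CPM under the Ablim3 shRNA (SD, n = 4). The difference was -0.92 as a log2 fold change (log2FC, shRNA over shNT), which did not pass the threshold (FDR = 0.0678).

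The shNT samples gave the order of the precursors in CA3/CA2 PV INs, here as CPM per kilobase of exon so that genes of different length can be compared. Npy had 456 ± 138 and Sst 424 ± 99.9 CPM per kilobase (SD, n = 5). Both lay at the 99.4 percentile of the genes tested, and Npy was above Sst in only 2 of the 5 samples, so their order was not settled. Cck (125 ± 27.8) and Tac1 (119 ± 24.8) followed, again without a settled order, since Cck was above Tac1 in 2 of 5 samples. Cort had 66.2 ± 20.2 CPM per kilobase and lay below Tac1 in every shNT sample. The range of Sst did not overlap that of Cck, nor that of Tac1 the range of Cort. Pvalb, the gene that drives Cre, stood at 959 on the same scale.

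The other 5 genes of the list were far lower. Nos1, a gene with 10857 bases of exon, had 4.94 ± 0.664 CPM per kilobase and lay at the 51.2 percentile. Crh (4.74 ± 1.41) and Penk (3.59 ± 1.54) overlapped with Nos1 and with each other. Vip had 1.36 ± 0.558 and Pdyn 0.573 ± 0.208 CPM per kilobase, at the 28.2 and 16.2 percentiles. Penk was above Vip and Vip above Pdyn in 5 of 5 samples, although the ranges of these neighbours overlapped. The defining peptide of the interneuron-selective cells and the dynorphin precursor were thus present in these pulldowns at 12 to 104 counts per sample.

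**Figure D1:**
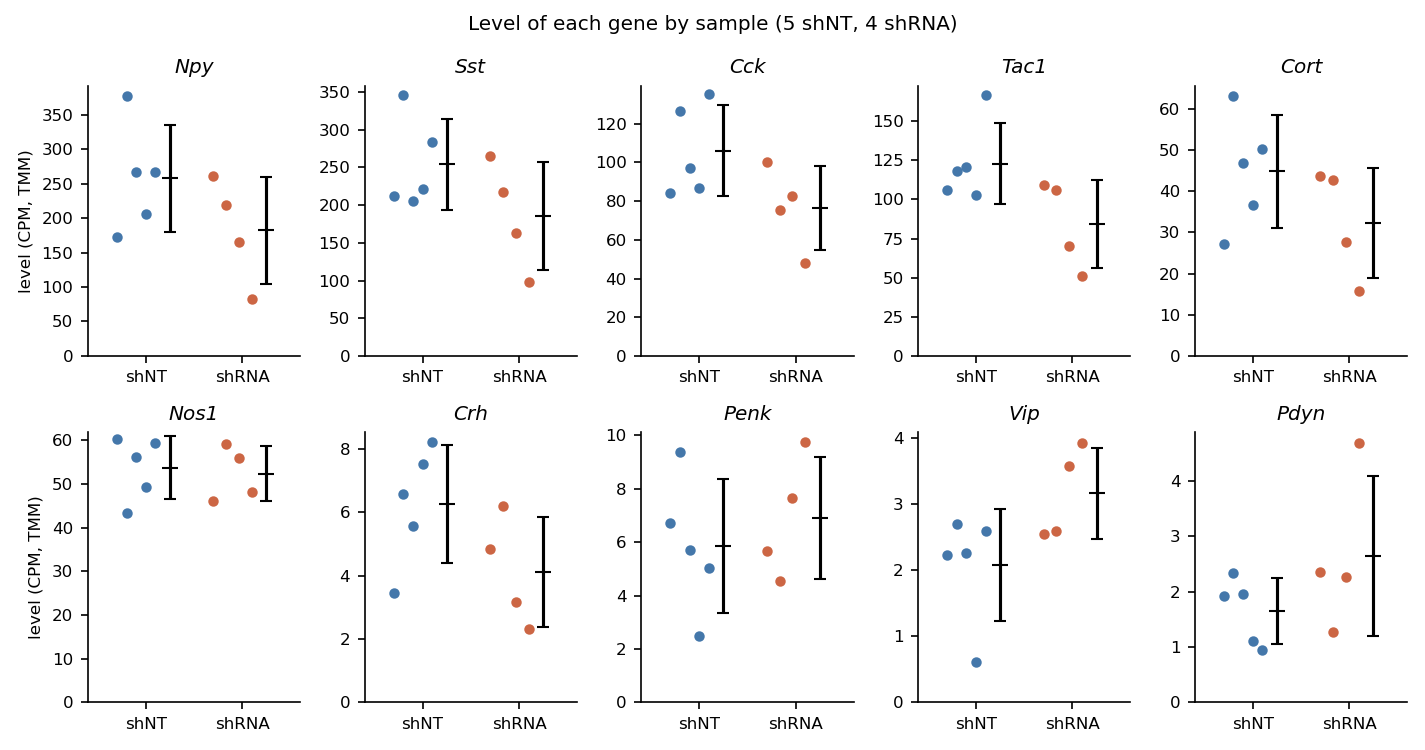
Level of each gene in every sample (y axis, CPM normalized by TMM, from 0; each panel has its own scale), with shNT samples in blue and shRNA samples in orange, drawn from replicate 1 on the left, and the mean with its SD in black. The groups overlap in all 10 genes, and shRNA replicate 4 is the lowest sample in 6 of them and the highest in 3.

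None of the 10 genes was called different between shRNA and shNT samples by edgeR's quasi-likelihood test (false discovery rate, FDR, below 0.05 and 1.5-fold or more), against 1.75% of all genes tested. The number with an unadjusted p under 0.05 was 1, Tac1, against 34.1% of all genes. edgeR's likelihood ratio test, its exact test and DESeq2 called 0 as well, with Tac1 and Cck at an unadjusted p under 0.05 in each. limma voom with sample quality weights called 1, Vip, as higher (15.3% of all genes were called higher in that test and 4.1% lower). Over all genes the likelihood ratio test called 11.2% higher and 3.6% lower, the exact test 11% and 3.53%, and DESeq2 10.1% and 5.6%. The groups did not overlap in 0 of the 10 genes, against 15.6% of all genes. Of the 9 precursors 6 had a negative log2FC and 3 a positive one. Among the 15047 tested genes with a known exon length 42.1% were negative. The median over the 10 genes was -0.46, against 0.11 over all genes tested.

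Positions are those of mm9 (GENCODE M1), and values are listed from replicate 1 on in each group. Sst (ENSMUSG00000004366, chr16:23889667-23890930) had 213, 346, 206, 222 and 284 CPM under shNT and 265, 217, 163 and 97.7 CPM under the Ablim3 shRNA. Only shRNA replicates 3 and 4 lay below the shNT samples, while replicate 1 lay above 3 of them. Group means were 254 ± 59.8 CPM for shNT (SD, n = 5) and 186 ± 72.0 CPM for shRNA (SD, n = 4). The log2FC was -0.45 (standard error 0.27, FDR = 0.254). With each sample left out in turn it lay between -0.72 (without shRNA replicate 1) and -0.27 (without shRNA replicate 4). Without both shRNA replicate 4 and shNT replicate 2 it was -0.10. These were the lowest and the highest sample of Sst, so leaving them out had to bring the groups closer.

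Npy (ENSMUSG00000029819, chr6:49772709-49779506), whose peptide dampens transmitter release, followed Sst closely. Its level was 173, 377, 267, 206 and 267 CPM in the shNT samples and 261, 219.9, 165 and 82.4 CPM in the shRNA samples. shNT replicate 2 was the highest sample and shRNA replicate 4 the lowest, as in Sst. Its means of 258 ± 78.0 and 182 ± 77.2 CPM gave a log2FC of -0.50 (standard error 0.32, FDR = 0.273). With each sample left out in turn it lay between -0.78 (without shRNA replicate 1) and -0.29 (without shRNA replicate 4). It was -0.08 without both shNT replicate 2 and shRNA replicate 4, its extreme samples.

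Cort (ENSMUSG00000028971, chr4:148499143-148500872) had 27.1, 63.2, 47.0, 36.6 and 50.2 CPM in the shNT samples and 43.6, 42.7, 27.6 and 15.6 CPM in the shRNA samples, nearly the same order of samples as in Npy. Only shRNA replicate 4 lay below all shNT samples. Its means of 44.8 ± 13.7 and 32.4 ± 13.3 CPM gave a log2FC of -0.47 (standard error 0.31, FDR = 0.295), and -0.08 without shNT replicate 2 and shRNA replicate 4, again its extreme samples. The log2FC lay between -0.69 (without shRNA replicate 1) and -0.27 (without shRNA replicate 4) with each sample left out.

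Cck (ENSMUSG00000032532, chr9:121398943-121404807) had 84.1, 127, 97.2, 86.6 and 135 CPM in the shNT samples and 100.1, 75.5, 82.6 and 47.9 CPM in the shRNA samples. Here 3 of the 4 shRNA samples lay below the lowest shNT sample, and replicate 1 lay within the shNT range. With means of 106 ± 23.5 and 76.5 ± 21.7 CPM its log2FC was -0.47 (standard error 0.22, FDR = 0.161), and -0.22 without shNT replicate 2 and shRNA replicate 4. The log2FC lay between -0.68 (without shRNA replicate 1) and -0.33 (without shRNA replicate 4) with each sample left out.

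Tac1 (ENSMUSG00000061762, chr6:7505071-7512973), the substance P precursor, had 106, 118, 121, 103 and 167 CPM in the shNT samples and 109.5, 106, 70.5 and 51.4 CPM in the shRNA samples. All 4 shRNA samples lay below the shNT median, and replicates 3 and 4 below every shNT sample. With means of 123 ± 25.7 and 84.4 ± 28.3 CPM its log2FC of -0.54 (standard error 0.24) had the lowest FDR of the list, 0.133. With each sample left out in turn it lay between -0.74 and -0.39, with an FDR between 0.103 and 0.257. limma voom gave Tac1 an FDR of 0.0317 at a log2FC below 1.5-fold in size, so it was not called there either.

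Crh (ENSMUSG00000049796, chr3:19593401-19595396), measured at 51 to 262 counts per sample, had 3.45, 6.56, 5.56, 7.52 and 8.22 CPM in the shNT samples and 4.85, 6.18, 3.16 and 2.30 CPM in the shRNA samples. The shRNA samples were all below the shNT median, but shNT replicate 1 was as low as they were. Means were 6.26 ± 1.86 and 4.13 ± 1.73 CPM, and log2FC was -0.60 (standard error 0.33, FDR = 0.218). It was -0.37 without shNT replicate 2 and shRNA replicate 4. With each sample left out in turn it lay between -0.86 (without shRNA replicate 2) and -0.42 (without shRNA replicate 4).

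Nos1 (ENSMUSG00000029361, chr5:118231041-118408849) varied least among the 10 genes. Its level was 60.2, 43.3, 56.2, 49.3 and 59.4 CPM in the shNT samples and 46.0, 59.2, 56.0 and 48.1 CPM in the shRNA samples, so that the highest and lowest of the 9 samples differed by 1.39 times, against 2.82 to 6.48 times in the precursors. Means were 53.7 ± 7.21 and 52.3 ± 6.27 CPM, and log2FC was -0.04 (standard error 0.14, FDR = 0.868).

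The remaining 3 precursors had higher means in the shRNA samples. Vip (ENSMUSG00000019772, chr10:4698927-4707323) had 2.24, 2.71, 2.26, 0.605 and 2.60 CPM in the shNT samples and 2.56, 2.59, 3.59 and 3.92 CPM in the shRNA samples. shNT replicate 4, with 12 counts, stood far below all others, and shRNA replicates 3 and 4 lay above every shNT sample. From means of 2.08 ± 0.852 and 3.17 ± 0.694 CPM its log2FC was 0.59 (standard error 0.38, FDR = 0.274), and 0.29 without shNT replicate 4. With limma voom and sample quality weights, the test that called Vip, it was 1.105 (FDR = 0.0338), while its FDR lay between 0.0338 and 0.740 over all alternatives.

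Pdyn (ENSMUSG00000027400, chr2:129512301-129525580) had 1.92, 2.34, 1.96, 1.11 and 0.941 CPM in the shNT samples and 2.36, 1.28, 2.27 and 4.69 CPM in the shRNA samples. shRNA replicate 4 stood far above all others, and shRNA replicate 1 barely exceeded the highest shNT sample. From means of 1.65 ± 0.60 and 2.65 ± 1.45 CPM its log2FC of 0.68 (standard error 0.41, FDR = 0.249) was 0.22 without shRNA replicate 4. Penk (ENSMUSG00000045573, chr4:4060678-4065966) had 6.72, 9.36, 5.69, 2.47 and 5.05 CPM in the shNT samples and 5.68, 4.55, 7.65 and 9.74 CPM in the shRNA samples, with shNT replicate 2 nearly as high as shRNA replicate 4. Penk means were 5.86 ± 2.51 and 6.91 ± 2.28 CPM, and log2FC was 0.23 (standard error 0.35, FDR = 0.647) and -0.01 without shRNA replicate 4. In Penk 14.3% of the exon bases are shared with A830012C17Rik, a noncoding gene on the opposite strand, and counting without strand leaves reads there ambiguous.

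Sample names fall into sets, YTa31 and YTa32, which the labels do not describe. In the YTa31 samples alone (3 against 3) log2FC was -0.29 for Sst, -0.38 for Npy, -0.31 for Cort, -0.30 for Cck, -0.31 for Tac1, -0.16 for Crh and 0.24 for Vip, and those of Penk and Pdyn were negative, at -0.33 and -0.11.

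The lower levels of the abundant precursors went with exon length. The 5 abundant precursors Sst, Npy, Cck, Tac1 and Cort have between 566 and 1034 bases of exon, and 9 of the 10 genes are shorter than the median of the genes tested, 3622 bases. Among all 643 genes tested in that length range the median log2FC was -0.43, and 74.7% were negative. Among the 264 of them that averaged at least 10 CPM it was -0.63, and 96.2% were negative. The 5 precursors, with log2FC values from -0.54 to -0.45, lay between these medians. All 5 averaged at least 10 CPM, and each was less negative than the median of -0.63 for such genes. When a trend with exon length was removed in every sample, the log2FC was 0.01 for Sst, -0.03 for Npy, -0.02 for Cort, -0.08 for Cck and -0.22 for Tac1. That of Crh was still -0.32, and that of Nos1 became -0.52 (FDR = 0.105). Vip, Penk and Pdyn, also shorter than the median, had 0.81, 0.43 and 0.65. Over all genes tested the same step moved the median from 0.11 to -0.0018. What exon length stands for in these libraries was not tested.

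**Figure D2:**
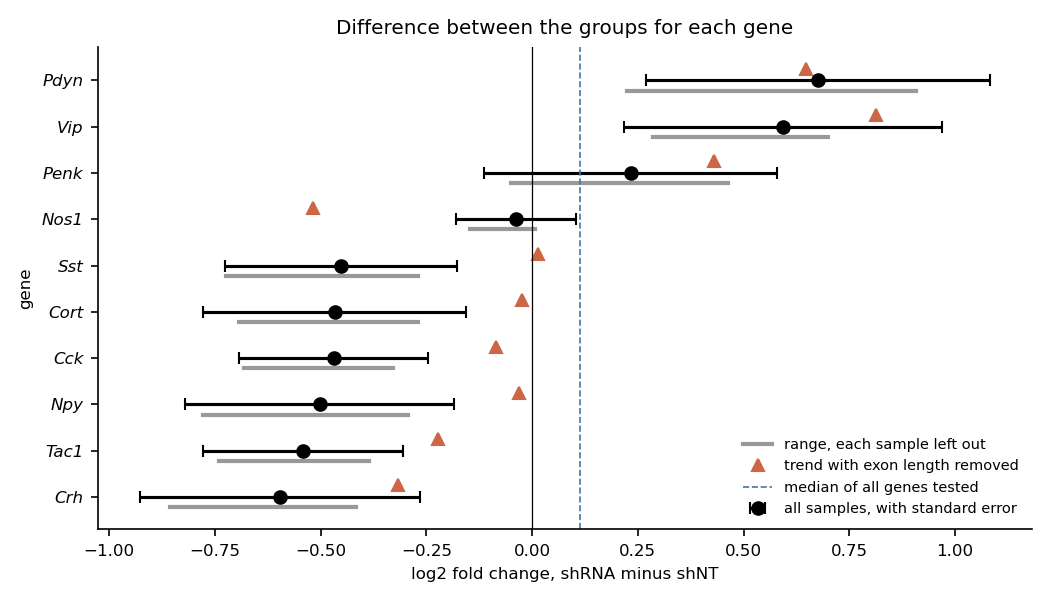
Log2FC of each gene (x axis, shRNA minus shNT; y axis, the 10 genes) with its standard error in black, the range with each sample left out as a grey bar, and the value after removing a trend with exon length as an orange triangle. The dashed line is the median of all genes tested. The triangles of Sst, Npy, Cort and Cck lie between -0.08 and 0.01, away from their black points at -0.50 to -0.45.

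The list for PV INs (Pvalb, Syt2, Kcnc1 and others) leaned the same way as the abundant precursors. It had 9 of 10 genes with a negative log2FC, a median of -0.35, and 0 called (edgeR quasi-likelihood test; 3 at an unadjusted p under 0.05, while the likelihood ratio test, the exact test and DESeq2 called 3 lower and limma voom 2). The 9 of 10 that were negative stand beside 42.1% of all genes. The 3 of 10 at an unadjusted p under 0.05 stand beside the 34.1% of all genes, and the calls of the other tools beside the 3.53% to 5.6% of all genes called lower. The median of the list was 0.06 with the reads outside exons as a covariate. Its summed level was 2977 to 4281 CPM in the shNT samples and 1508 to 3234 CPM in the shRNA samples. With the mean level of this list as a covariate, the log2FC values of the 5 abundant precursors lay between -0.25 and -0.18, and Pdyn and Penk turned to -0.12 and -0.24. As a share of Pvalb in the same sample, Sst was 20.4% to 31.4% in the shNT and 30.2% to 39.3% in the shRNA samples, and Npy 18.9% to 35.9% and 26.6% to 39.8%. Cck was 7.95% to 13.1% of Pvalb in the shNT and 13.7% to 15.4% in the shRNA samples, the only one of these 5 precursors whose shares did not overlap, whereas the ratio to Pvalb did not overlap in 29.6% of all genes. The mean share was higher in the shRNA samples for each of the 5. Pvalb itself had a lower log2FC (-0.92) than any of them (-0.54 to -0.45), so higher shares follow from Pvalb and are no separate result.

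Sst, Npy and Cort varied together from sample to sample, and so did Cck, Tac1 and Crh with them. The Pearson r of log2 levels was 0.922 for Sst and Cck, 0.880 for Sst and Tac1 and 0.869 for Crh and Cort. The lowest among the pairs of these genes was 0.760, for Cck and Crh. Over the 9 samples the log2 levels of Npy and Cort had a Pearson r of 0.986 and a Spearman rho of 0.983, and r was 0.966 without the 2 samples farthest from the median. Among the 9494 other genes that averaged at least 10 CPM, Cort was the gene whose pattern was most like that of Npy, followed by Raly (r = 0.979) and Sst (r = 0.953). Without the 2 samples farthest from the median r was 0.738 for Sst and Npy, 0.853 for Sst and Tac1 and 0.317 for Cck and Crh. The genes most like Cort were Npy, Raly (r = 0.969) and Nudt11 (r = 0.943). The closest patterns to Cck were those of the ribosomal protein genes Rpl31 (r = 0.980) and Rpl27a (r = 0.975) and of Pde4d (r = 0.974). Those closest to Sst were Cadm4 (r = 0.970), Kctd1 (r = 0.958) and Rpl9 (r = 0.956), and those closest to Tac1 were Tatdn1 (r = 0.971), Pafah1b3 (r = 0.957) and Mrap2 (r = 0.956). Nos1 did not share this pattern: its r with Npy was -0.11, and the nearest genes were Kcnip4 (r = 0.952), Pnmal2 (r = 0.926) and Col25a1 (r = 0.918). These are descriptions over samples that differ in library depth and composition, and such differences are common to all genes of a sample.

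**Figure D3:**
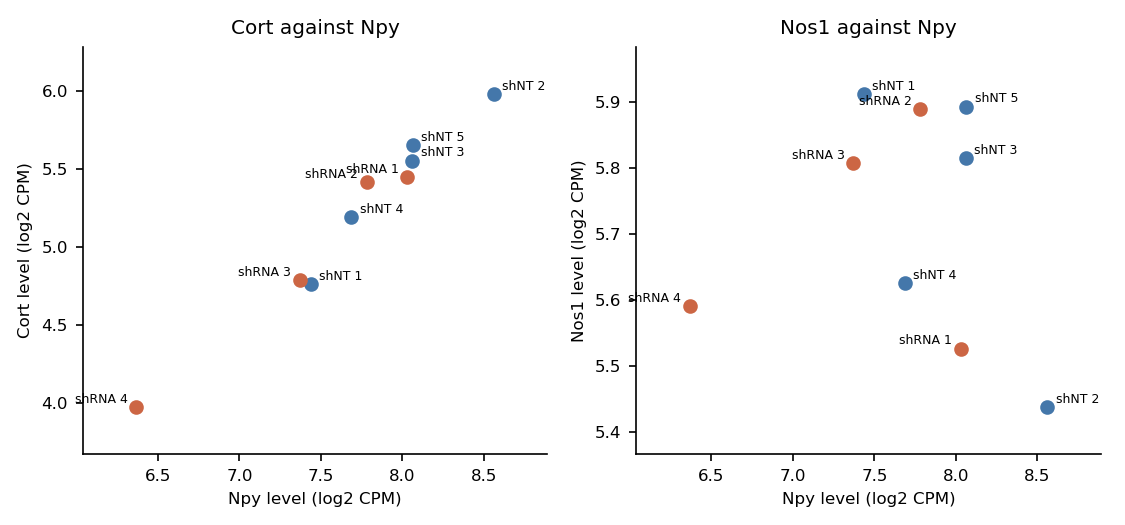
Log2 CPM of Cort (left, y axis) and Nos1 (right, y axis) against that of Npy (x axis), with 1 point for each of the 9 samples, blue for shNT and orange for shRNA. Cort lies along a line with Npy (r = 0.986) from shRNA replicate 4 up to shNT replicate 2, while Nos1 has no such relation (r = -0.11).

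Markers of the cell classes that the peptides stand for were near the peptides in some classes and not in others. In the list for CCK and VIP interneurons the summed level was 67.2 to 94.7 CPM in the shNT and 119 to 167 CPM in the shRNA samples, with a median log2FC of 0.56 beside 0.59 for Vip and -0.47 for Cck, and 2 of 6 genes were called higher, against 1.75% of all genes in either direction. Cnr1, the cannabinoid receptor of CCK basket cells and also of excitatory neurons, was higher in the shRNA samples (69.7 ± 12.5 CPM, SD, n = 4) than in the shNT samples (30.5 ± 9.67 CPM, SD, n = 5), with a log2FC of 1.19 (standard error 0.23, FDR = 0.0404). Adarb2 rose by 1.62 on the log2 scale (FDR = 0.0497). In the list for neurogliaform and ivy interneurons Reln (1.16, FDR = 0.0414) and Kit (1.28, FDR = 0.0403) were called higher, while Lamp5 had a log2FC of -0.05 and Nos1 -0.04. Of the list for somatostatin O-LM interneurons 3 of 4 genes were tested and 0 called (edgeR quasi-likelihood test; 1 at an unadjusted p under 0.05 and 1 called by limma voom), and Chrna2, which defines those cells, had at most 8 counts in any sample. In this list log2FC was -0.42 for Nxph1, beside -0.45 for Sst, and 0.05 for Elfn1. None of the calls in these lists held without shNT replicate 3, 4 or 5 or without shRNA replicate 1 or 3, where the same test called 0 of all genes. Without shRNA replicate 4 neither Cnr1 nor Adarb2 was called, and 1 of the neurogliaform and ivy genes was.

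Markers of other cells were present beside the peptides. Excitatory neuron genes summed to 728 to 1626 CPM in the shNT and 1661 to 2058 CPM in the shRNA samples, with 0 of 5 called (4 at an unadjusted p under 0.05, against 34.1% of all genes, and 3 or 4 called higher by the other tools, against 10.1% to 15.3%), and DG granule cell genes to 101 to 169.6 and 204 to 218 CPM, with 1 of 7 called higher. The mean log2 level of the granule cell list over the shNT mean was 0.98, 0.82, 0.93 and 1.096 in shRNA replicates 1 to 4. Pdyn, a single gene at low counts, ran from 1.28 to 4.69 CPM in the same samples. A mean over genes on the log2 scale and the CPM of 1 gene are unlike measures, so their spreads were not compared. Astrocyte genes summed to 533 to 986 CPM in the shNT and 862 to 4589 CPM in the shRNA samples, with 0 of 9 called, 8 at an unadjusted p under 0.05 (34.1% of all genes) and 3 to 8 called higher by the other tools (10.1% to 15.3% of all genes). Without shRNA replicate 4 the median of the astrocyte list was 0.37. Endothelial genes summed to 56.3 to 165.6 CPM in the shNT and 33.0 to 494 CPM in the shRNA samples, with the highest level in shRNA replicate 4. Striatal projection neurons, which make Penk, Pdyn and Tac1, had defining markers at low levels, with Drd1a between 3.88 and 7.29 CPM and Drd2 between 0.656 and 1.53 CPM in all 9 samples. The part of any of these other cells, excitatory neurons included, in the peptide levels was not tested.

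**Figure D4:**
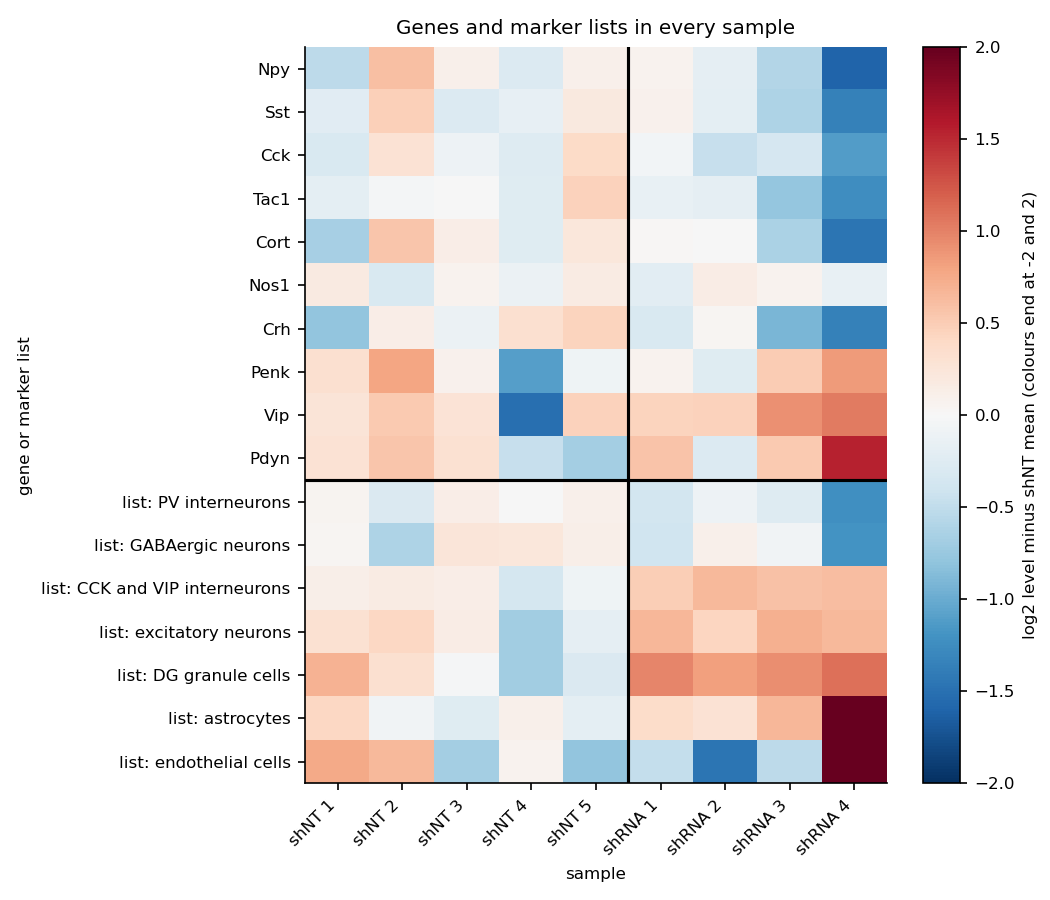
Log2 level minus the shNT mean (colour, blue lower and red higher, ending at -2 and 2) of the 10 genes and of 7 marker lists (rows) in the 9 samples (columns). shRNA replicate 4 is blue in Npy, Sst, Cck, Tac1, Cort and Crh and in the PV IN list (-1.23), and red in Pdyn, Vip, Penk and the astrocyte list (2.51).

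Receptors for neuropeptides had mostly positive log2FC values, though so did all genes, of which 42.1% were negative. Of 23 receptor genes 18 were tested, 13 had a positive log2FC, the median was 0.54, and 0 were called (edgeR quasi-likelihood test; 6 at an unadjusted p under 0.05, near the 34.1% of all genes). The likelihood ratio test, the exact test and DESeq2 each called 5 of the 18 higher, against 10.1% to 11.2% of all genes, and limma voom 10, against 15.3%. The median was positive under all 27 alternatives, between 0.31 with the YTa31 samples alone and 0.76. The groups were separate, with shRNA higher, in 5 of the 18 (Npy2r, Sstr3, Vipr1, Oprk1 and Npy5r, named after their values were seen), beside 15.6% of all genes whose groups do not overlap. The 3 most abundant were the PACAP receptor Adcyap1r1 (102 ± 37.9 and 128 ± 25.8 CPM), the delta opioid receptor Oprd1, a receptor for enkephalin that PV INs are known to carry (61.4 ± 26.9 and 60.8 ± 26.3 CPM), and the nociceptin receptor Oprl1 (34.5 ± 6.53 and 35.7 ± 8.97 CPM), with log2FC values of 0.33, -0.02 and 0.05. Other receptors were chosen after their values were seen. Npy2r, a presynaptic receptor for neuropeptide Y, had 16.0 ± 3.28 CPM in shNT and 27.8 ± 4.24 CPM in shRNA samples without overlap, and its log2FC of 0.80 missed the threshold narrowly (FDR = 0.0503). Vipr1 had a log2FC of 1.56 (FDR = 0.0564), and the somatostatin receptors Sstr4, Sstr1 and Sstr3 had 1.09, 1.12 and 0.83, with FDR values between 0.0558 and 0.0716. The 5 receptors with a negative log2FC were Cckbr (-0.37), Vipr2 (-0.30), Tacr1 (-0.25), Oprm1 (-0.19) and Oprd1 (-0.02). With the trend with exon length removed the median of the receptors was 0.46, and without shRNA replicate 4 it was 0.51.

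The machinery that cuts and stores the precursors was abundant and mixed in direction. Of 11 processing genes 1 was called higher by edgeR's quasi-likelihood test, against 1.75% of all genes, and 6 had an unadjusted p under 0.05, against 34.1%. The likelihood ratio test, the exact test and limma voom called 3 higher and 1 lower, DESeq2 2 and 2, and the quasi-likelihood test with DESeq2 size factors 0. The called gene was the convertase Pcsk5, with 2.59 ± 0.390 CPM in shNT and 5.59 ± 1.45 CPM in shRNA samples (log2FC 1.11, FDR = 0.0433). Cpe, the carboxypeptidase that trims the cut ends, had 2036 ± 190.4 and 2009 ± 195 CPM (log2FC -0.02). The convertase inhibitor Pcsk1n (log2FC -0.78, FDR = 0.0854) and Scg5, the chaperone of Pcsk2 (-0.62, FDR = 0.0913), lay lower in every shRNA sample than in any shNT sample without passing the threshold. The convertase Pcsk2 (log2FC 0.62, FDR = 0.0706) and the carboxypeptidase Cpd (0.86, FDR = 0.0547) lay higher in the same way, so that with Pcsk5 the groups did not overlap in 5 of 11 genes, against 15.6% of all genes. Of these, Pcsk2 and Cpd were named after their values were seen. Of 11 dense-core vesicle genes 1 was called higher, Cadps2, a priming factor for vesicle release (10.9 ± 4.35 and 27.1 ± 2.88 CPM, log2FC 1.31, FDR = 0.0433), and 8 had a negative log2FC, with a list median of -0.24 that turned to 0.03 and 0.20 with the reads outside exons or the PV IN level as a covariate. Among them were Rab3a (-0.55), Chga (-0.52) and Chgb (-0.17), while 42.1% of all genes had a negative log2FC. The calls of Pcsk5 and Cadps2 also ended when any of shNT replicates 3 to 5, or of shRNA replicates 1, 3 and 4, was left out.

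Other lists of the pathway held 0 called genes (edgeR quasi-likelihood test). Of 17 further neuropeptide precursors 7 were tested, with 4 positive log2FC values and a median of 0.12, which was -0.13 without shRNA replicate 4. The most abundant were the nociceptin precursor Pnoc (11.1 ± 2.43 and 8.63 ± 2.95 CPM, log2FC -0.36), Nppc (9.12 ± 1.30 and 6.65 ± 1.36 CPM, -0.45, FDR = 0.131, without overlap between the groups) and Grp (2.19 ± 0.850 and 2.40 ± 0.926 CPM, 0.12). The 10 that were not tested stayed below 1 CPM in every sample. An unadjusted p under 0.05 was found for 2 genes of this list, 2 of the 8 that degrade or bind peptides and 2 of the 10 of nitric oxide signalling. Crhbp, which binds the Crh peptide, had 385 ± 42.4 and 269 ± 86.1 CPM (log2FC -0.52, FDR = 0.135). The peptidases Prep (62.2 ± 20.7 and 59.0 ± 24.0 CPM) and Thop1 (49.0 ± 4.28 and 51.7 ± 6.94 CPM) had log2FC values of -0.08 and 0.08. In nitric oxide signalling the most abundant were Pde2a (0.38), Dynll1 (-0.44) and the Nos1 adaptor Nos1ap (0.25), and the list's median of 0.16 was -0.19 with the trend with gene length removed and -0.08 with that of exon length. limma voom called 1 of the peptide-degrading genes higher, and the other tools called none in these lists.

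Activity-regulated and CREB-related genes, which can be set beside the cAMP element of Sst, had 8 of 11 positive log2FC values with a median of 0.57 and 0 called by the quasi-likelihood test. Negative values made up 42.1% over all genes. An unadjusted p under 0.05 was found for 5 of the 11, against 34.1% of all genes. The other edgeR tests and DESeq2 each called 3 higher, against 10.1% to 11.2% of all genes, and limma voom called 5 higher and 1 lower, against 15.3% and 4.1%. Crtc1, a coactivator of CREB, had 75.5 ± 24.2 CPM in shNT and 126 ± 17.9 CPM in shRNA samples (log2FC 0.74, FDR = 0.0661). Arc had 27.6 ± 12.9 and 62.7 ± 16.5 CPM (1.19, FDR = 0.0630), without overlap between the groups, and Egr1 33.4 ± 14.6 and 52.0 ± 8.31 CPM (0.64, FDR = 0.126). Sst, the gene with the full element, had a log2FC of -0.45, and a match in the promoter says nothing of binding in these cells.

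**Figure D5:**
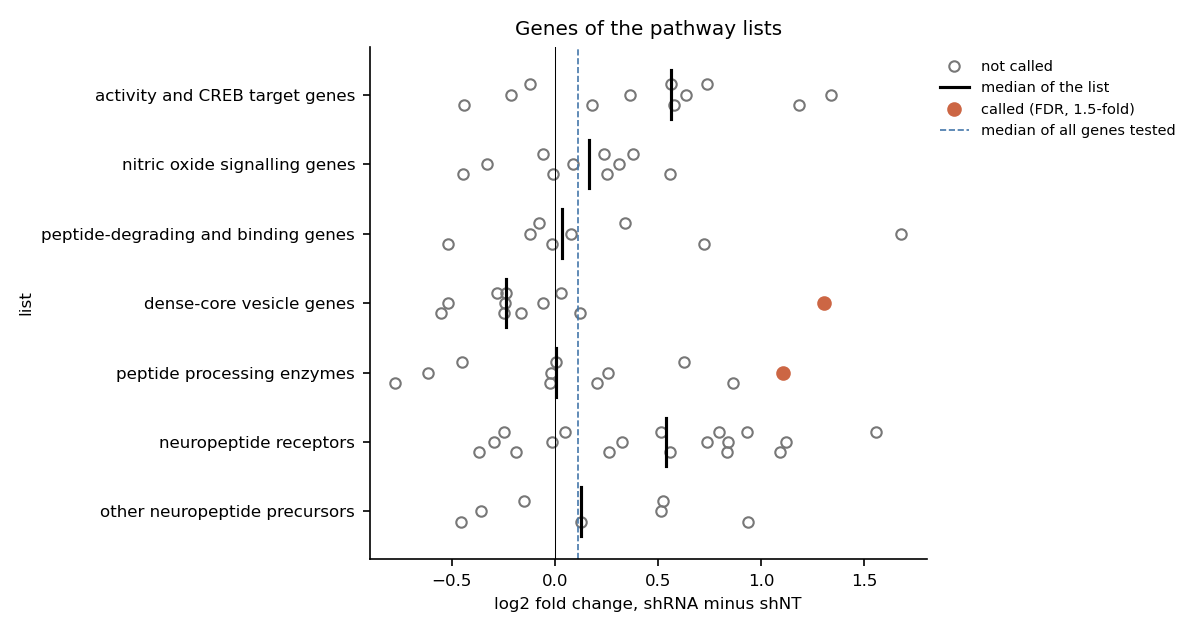
Log2FC (x axis, shRNA minus shNT) of the genes tested in each pathway list (y axis), filled orange where called and open otherwise, with the median of each list as a black bar and the median of all genes tested as a dashed line. The filled points are Pcsk5 (1.11) and Cadps2 (1.31), and the medians run from -0.24 in dense-core vesicle genes to 0.57 in activity and CREB target genes.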

How the data were processed

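RNA of immunoprecipitated ribosomes was measured in 5 shNT and 4 shRNA samples. STAR alignments to the transcriptome of mm9 were turned by the authors into unstranded gene counts with HTSeq 0.6.0, and the raw counts were deposited as 1 table per sample. The annotation they used is not given in the sources used here. Names, lengths and positions came from GENCODE M1 (NCBIM37), which named 37205 of 37620 identifiers. No libraries were identical. Genes reaching 1 CPM in any sample were normalized by TMM and compared with edgeR 4.0.16 (quasi-likelihood test, condition as the only term, R 4.3.3). Calls needed an FDR under 0.05 (Benjamini-Hochberg over all 15069 genes) and 1.5-fold. The standard error was taken from the log2 fold change and its F statistic. Log2 levels used a prior count of 2, and list levels are means over genes. Alternatives used DESeq2 1.42.0, limma 3.58.1, other normalizations, filters, covariates, blocks and samples. A trend with length was removed as a lowess offset in each sample. The methods were tested on simulated data.

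The 10 genes, the lists and most tests were chosen with earlier results of these data known. Named beside the 10 genes were the called and the 3 most abundant genes of each pathway list, Pvalb, and the 3 genes most like each gene averaging at least 10 CPM. Further receptors, the processing genes Pcsk2 and Cpd, and genes of the marker lists were named after their values were seen. Older symbols were used for Lamp5 and Ndnf. Samples are separate pools of mice, and p-values measure the spread between pools.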

Additional observations from a re-analysis of the deposited data

Results flagged for a closer look

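A single sample lay far from the rest of its group in 3 of 62 groups of values examined, and chance alone gives about 3.1. Vip had 0.605 CPM in shNT replicate 4, against 2.24 to 2.71 CPM in the other shNT samples, and its log2 fold change was 0.29 without that sample. The mean level of GABAergic neuron markers was -0.622 in shNT replicate 2, against 0.0421 to 0.241 in the other shNT samples. For astrocyte markers the mean level of shRNA replicate 4 was 2.51, and the other shRNA samples had 0.292 to 0.670.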

How the results depend on the processing

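Depth limits Vip and Pdyn most, at 12 to 87 and 22 to 104 counts per sample. Over 27 alternatives the log2 fold changes of Npy, Cck, Tac1, Crh and Cort stayed negative and that of Vip positive. Among the 10 genes 1 was called with limma voom and 0 under every other alternative, including each sample left out in turn. Sst became 0.014 with the trend with exon length removed. Nos1 became 0.064 with limma voom, 0.013 with library size only, 0.110 with the outside-exon share as a covariate, 0.117 with the PV IN marker level as a covariate and ran from -0.146 to 0.0070 with each sample left out (above 0 without shNT replicate 1). Penk became -0.33 and Pdyn -0.11 in the YTa31 samples alone (3 against 3), Penk -0.12 with the share outside exons, Penk -0.24 and Pdyn -0.12 with the PV IN marker level, and Penk ran from -0.049 to 0.46 with each sample left out (below 0 without shNT replicate 4 or shRNA replicate 4).

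Over all genes 264 were called. There were 2230 with the likelihood ratio test, 2189 with the exact test, 2363 with DESeq2, 2919 with limma voom, 515 without a filter on low counts and 100 with the PV IN marker level as a covariate (50 higher and 50 lower, against 262 and 2 otherwise). None was called with library size only, upper quartile, the YTa31 samples alone, the share outside exons or either length trend removed, where 1493 to 5360 had an unadjusted p under 0.05. Leaving out each sample, the count ran from 0 to 1417, and without both shNT replicate 2 and shRNA replicate 4, chosen after seeing the data, it was 680.

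Replicate numbers are shared by the groups but name no common animal or batch, and same-numbered samples did not deviate together (correlations of -0.27, -0.64, 0.49 and -0.18). With the replicate number as a block, which drops shNT replicate 5, 34 genes and 0 of the 10 were called.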
